A study of Mus musculus with 24 samples.

Results

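The effect of Id4 loss that the 2 luminal populations of the mouse mammary gland had in common was measured by RNA sequencing. It was taken from 16 of the 24 libraries of the series, those of luminal progenitor (LP) and mature luminal (ML) cells, in which genotype was compared with population as a term. The groups were 4 KO LP, 4 KO ML, 4 WT LP and 4 WT ML libraries. KO mice were Id4 knockouts, WT mice were wild type, and all were FVB/N females of 10 to 12 weeks in estrus. Glands of 4 to 8 mice were pooled for each replicate, and LP (CD24+, CD29 low, CD61+) and ML (CD24+, CD29 low, CD61-) cells were sorted by flow cytometry. LP and ML libraries of 1 genotype and number were taken as 1 pool of mice, which left 8 pools, 4 of each genotype, behind the genotype comparison. The labels cite an earlier paper for the knockout and name no Cre or transgene, and the sources used here do not say which bases of Id4 are missing. Of 13013 genes that passed a filter on low counts, 7471 (57.4%) had a KO minus WT change of the same sign in both populations, 3852 both higher (29.6%) and 3619 both lower (27.8%). The other genes had opposite signs.

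ID4 belongs to the helix-loop-helix proteins that lack a DNA-binding region. ID proteins pair with E proteins, which bind the E-box, and keep them off DNA. Luminal progenitors and hormone-sensing mature luminal cells form the inner layer of the duct, and Id4 is known in the gland mainly from the outer, basal layer. Several of the genes below belong to fatty acid oxidation, in which acyl chains enter mitochondria as carnitine esters and are shortened in rounds, and which receptors of the PPAR family control.

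Luminal library totals ran from 3786225 to 7246445 expected counts, so 3 counts equal between 0.414 and 0.792 CPM, the count relative to library size. The RNA was amplified from 0.5 to 2 ng per sample without molecular tags, so counting limits do not cover amplification noise. Sorted cells matched their labels: 17 luminal progenitor markers summed to 1869 to 3285 CPM in KO LP and 1814 to 3356 CPM in WT LP, while in ML they summed to 249 to 877 CPM in KO and 298 to 529.7 CPM in WT. Both libraries of KO replicate 2 stood apart: in ML it held the most progenitor transcripts of any ML library, and in LP the most hormone-sensing transcripts of any LP library. Id4 itself (chromosome 13 from 48261228 to 48266026, mm10) was near the counting limit in these cells, with at most 5 counts in any KO and 7 in any WT luminal library, so the knockout could be checked only in the basal libraries of the same pools. There it had 10.3, 1.13, 11.1 and 0.942 CPM in KO, against 86.3, 13.2, 29.9 and 39.6 CPM in WT, without overlap. Id4 averaged 5.86 ± 5.58 CPM in the 4 KO libraries and 42.2 ± 31.3 CPM in the 4 WT libraries (SD), a log2 difference of -3.07 on CPM plus 0.5 with a two-sided exact permutation p of 0.0286, the smallest that 70 assignments allow. In these bulk samples, fewer cells of a type and less RNA per cell cannot be told apart.

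No gene passed the test of the shared effect across 13013 genes (limma voom with the pool as a random block, adjusted p under 0.05, 0%). At an unadjusted p under 0.05 there were 537 genes (4.13%), 319 higher in KO (2.45%) and 218 lower (1.68%), and DESeq2 without the pool term called 19. The KO and WT libraries of the same number deviated together, with correlations of 0.115 to 0.366 over genes, so the fit was also made with the replicate number as a block. In it the estimated correlation of the LP and ML libraries of a pool was -0.0421, so they entered almost as independent samples. It passed 12 genes (0.0922%), of which 8 were higher in KO (0.0615%) and 4 lower (0.0307%), and all 12 had the same sign in LP and ML. The test is on the mean of the LP and ML changes, which favours genes of the same sign, so this agreement is no separate result. The 4 that fell were Acot1, Hadha and Hsdl2, all of lipid metabolism, and the chaperone Hspa8. The 8 that rose included Emp1, Anxa2, Abcc8, Kcnh1, Pcdhac2, Itih2 and 4930523C07Rik. The number of calls depended on single replicates. Without replicate 1, 3 or 4 the blocked fit called 1 gene each time, and without replicate 2 it called 158. Each of the 12 genes still passed without replicate 2. In the other leave-outs only Acot1 without replicate 3 and Hadha without replicate 1 passed, and the remaining adjusted p-values of the 12 in limma voom ran from 0.0746 to 0.302. Without KO LP replicate 2 alone the fit called 18 genes, and Anxa2, Kcnh1 and Itih2 did not pass (limma voom adjusted p = 0.0532, 0.0593 and 0.0908).

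Signs were also counted pair by pair, a pair being the KO and the WT library of 1 population and number. Over all genes, 112 (0.861%) were lower in KO in all 8 pairs and 135 (1.04%) were higher, 1.9% together. When LP and ML were averaged per pool, 136 genes (1.05%) had all 4 KO pools below all 4 WT pools and 194 (1.49%) had them above. These shares are the background for the counts in gene groups below. For counts of signs the background is 29.6% higher and 27.8% lower in both populations. For an unadjusted p under 0.05 without the block (limma voom) it is 2.45% higher and 1.68% lower.

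**Figure D1:**
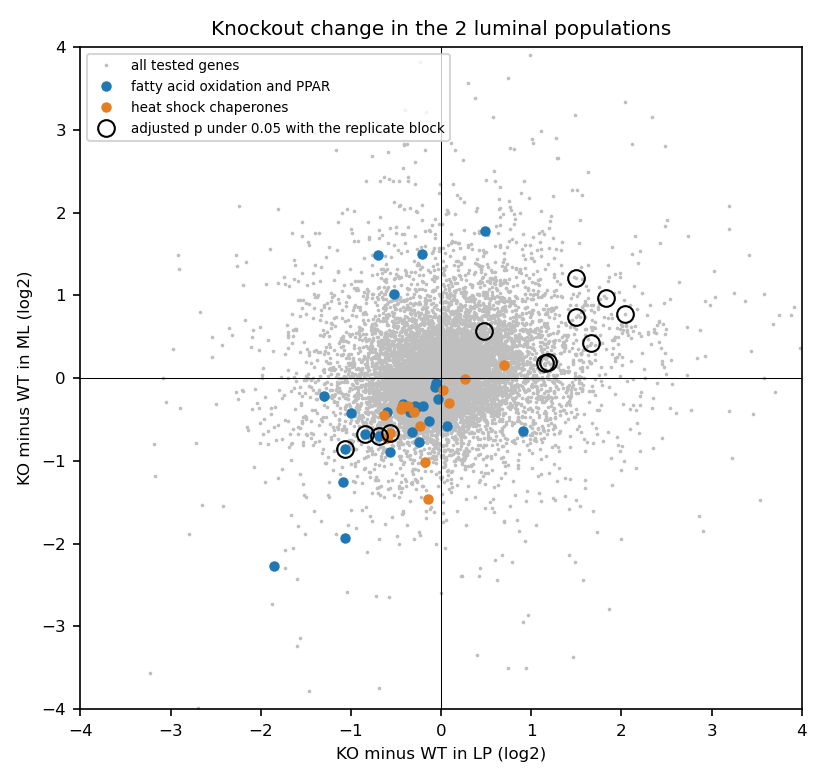
The log2 KO minus WT change of each tested gene in LP (horizontal axis) against that in ML (vertical axis), each from edgeR on 8 libraries. The 12 ringed genes passed with the replicate block and lie in the lower left or upper right corner, and 21 of the 27 fatty acid oxidation and PPAR genes lie at the lower left. 25 genes fall outside the plotted range.

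The promoters shown are those of the 3 lipid genes that passed with the block, all lower in KO. Each runs 5′ to 3′ from 250 bases before to 50 after the transcript start, from RefSeq on GRCm38.p6, and capitals mark each E-box, the letters CANNTG, which read the same way on both strands. Acot1 lies at chr12:84009252-84009551 on the plus strand with 2 E-boxes, Hsdl2 at chr4:59581313-59581612 on the plus strand with 1, and Hadha at chr5:30154931-30155230 on the minus strand with none.
Acot1: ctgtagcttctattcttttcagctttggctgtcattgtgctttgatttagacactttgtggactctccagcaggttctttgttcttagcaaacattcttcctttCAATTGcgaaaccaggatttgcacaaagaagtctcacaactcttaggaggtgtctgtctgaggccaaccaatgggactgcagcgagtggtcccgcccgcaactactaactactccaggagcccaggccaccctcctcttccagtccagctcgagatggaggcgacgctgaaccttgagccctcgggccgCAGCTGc
Hsdl2: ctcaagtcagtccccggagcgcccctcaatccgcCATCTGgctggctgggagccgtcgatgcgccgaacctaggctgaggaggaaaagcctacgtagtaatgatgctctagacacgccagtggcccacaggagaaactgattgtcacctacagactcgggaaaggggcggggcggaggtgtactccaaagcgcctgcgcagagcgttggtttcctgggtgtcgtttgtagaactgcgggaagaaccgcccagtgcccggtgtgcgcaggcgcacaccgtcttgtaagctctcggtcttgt
Hadha: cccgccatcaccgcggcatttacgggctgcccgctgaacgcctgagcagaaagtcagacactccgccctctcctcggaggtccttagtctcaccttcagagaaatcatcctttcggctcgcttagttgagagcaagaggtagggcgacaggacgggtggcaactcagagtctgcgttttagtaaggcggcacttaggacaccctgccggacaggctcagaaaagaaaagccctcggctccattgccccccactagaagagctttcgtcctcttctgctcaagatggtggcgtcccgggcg

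An E-box is common in such windows. It was found in 72.3% of 32851 promoters of the same length and in 16 of the 21 list genes with a promoter in the table (76.2%). The hexamer AGGTCA, which many nuclear receptors bind, searched on both strands, was in 16.3% of all promoters and 5 of the 21 (23.8%). The repeat known as DR1, here AGGNCA followed after 1 base by AGGNCA, was in 0.381% of all and in none of the 21. These matches describe letters in a window and say nothing of binding.

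Acot1, a cytosolic thioesterase that releases fatty acids from acyl-CoA, was lower in KO in every pair. It lies on chromosome 12 from 84009490 to 84018371 on the plus strand (mm10) and had 59.5, 79.2, 41.5 and 51.5 CPM in KO LP libraries, against 129, 162, 97.0 and 88.5 CPM in WT LP libraries, each in the order of replicates 1 to 4. Its ML values were 108, 98.3, 134 and 86.0 CPM in KO libraries, against 223, 153, 221 and 176 CPM in WT libraries. No KO library reached the lowest WT library of its population. In the blocked voom fit the log2 change was -0.95 (SE 0.14, adjusted p = 0.00661), and without the block it was -0.95 (SE 0.19, adjusted p = 0.747). By edgeR it was -1.06 in LP and -0.86 in ML, and by voom -0.96 in replicates 1 and 2 alone and -0.93 in replicates 3 and 4 alone. Acot2, a near-identical paralog with which reads can be divided wrongly, had the same sign (log2 -0.52 without the block, limma voom adjusted p = 0.994).

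Hadha encodes the alpha subunit of the mitochondrial trifunctional protein, which carries out the last 3 steps of a round of oxidation on long chains. It lies on chromosome 5 from 30118304 to 30155162 on the minus strand and had 94.1, 104, 61.6 and 93.9 CPM in KO LP libraries, against 139, 221, 122 and 144 CPM in WT LP libraries. KO ML libraries had 89.1, 84.2, 46.0 and 60.7 CPM, against 106, 137, 100.2 and 106 CPM in WT ML libraries. KO libraries lay below all WT libraries of their population in both LP and ML. With the block Hadha changed by a log2 value of -0.75 (SE 0.11, limma voom adjusted p = 0.00661), and 0.747 was the adjusted p without the block. Without the block the log2 change was -0.64 in replicates 1 and 2 alone and -0.88 in replicates 3 and 4 alone. Its partner Hadhb, the beta subunit, averaged 111 ± 15.3 CPM in KO LP and 119.8 ± 19.9 CPM in WT LP, and 100.2 ± 12.8 CPM in KO ML and 144 ± 18.6 CPM in WT ML (SD, n = 4 each). Hadhb did not pass (blocked log2 -0.32, limma voom adjusted p = 0.253), and its groups overlapped in LP but not in ML.

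Hsdl2, a member of the short-chain dehydrogenase family found in peroxisomes and mitochondria, fell, with similar log2 changes in LP and ML. It lies on chromosome 4 from 59581563 to 59618689 on the plus strand and had 98.2, 119, 135 and 155 CPM in KO LP libraries, against 163, 206, 257 and 181 CPM in WT LP libraries. In ML it had 128, 123, 171 and 128 CPM in KO libraries, against 192, 192, 264 and 246 CPM in WT libraries. The groups did not overlap in either population, and KO ML replicate 3 stood well above the other KO ML libraries. Its log2 change with the block was -0.68 (SE 0.10, limma voom adjusted p = 0.00661, 0.747 without the block). By edgeR it was -0.69 in LP and -0.70 in ML, and -0.64 in the basal libraries of these pools.

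The wider list of fatty acid oxidation and PPAR genes leaned the same way. Of its 30 genes, 27 passed the filter on low counts, and Ppara, Cpt1b and Ucp3 did not. Of the 27, 21 were lower in KO in both populations, 1 was higher in both and 5 had opposite signs, against 27.8%, 29.6% and the remainder of all tested genes. At an unadjusted p under 0.05, 12 were lower in KO and none was higher (1.68% and 2.45% of all genes), and with the block 16 and none (4.98% and 7.02%). Only Acot1, Hadha and Hsdl2 passed the adjusted threshold, and only with the block. All 4 KO pools lay below all 4 WT pools for 9 members and all 8 pairs were lower for 5. The median log2 change over the 27 was -0.40, beside 0.01 for all tested genes. LP gave -0.34 and ML -0.42. Replicates 1 and 2 alone gave -0.52, and replicates 3 and 4 alone -0.37. Acot1, Hsdl2, Pdk4 and Slc27a1 entered the list because earlier results of these libraries had shown them. Without them 23 tested genes remained, of which 17 were lower in both populations and 8 were lower at an unadjusted p under 0.05, with a median of -0.32. Hadha is among the 23, and the whole list was written with earlier results of these data known. The 23 are therefore no independent check.

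Summed over the list, levels in KO libraries were close to one another. KO LP libraries held 1186, 1167, 1194 and 1218 CPM and WT LP libraries 2015, 1997, 1648 and 1429 CPM. KO ML libraries held 1165, 1040.1, 1212 and 1125 CPM and WT ML libraries 1849, 1532, 1908 and 1656 CPM. Every KO sum lay below every WT sum of its population, although the sum weighs abundant genes most. Without Acot1, Hsdl2, Pdk4 and Slc27a1, the sums were 759 to 875 CPM in KO LP and 883 to 1239 CPM in WT LP. In ML they were 781 to 904 CPM in KO and 1135 to 1353 CPM in WT. These ranges did not overlap, but in LP the highest KO and the lowest WT sum were close.

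**Figure D2:**
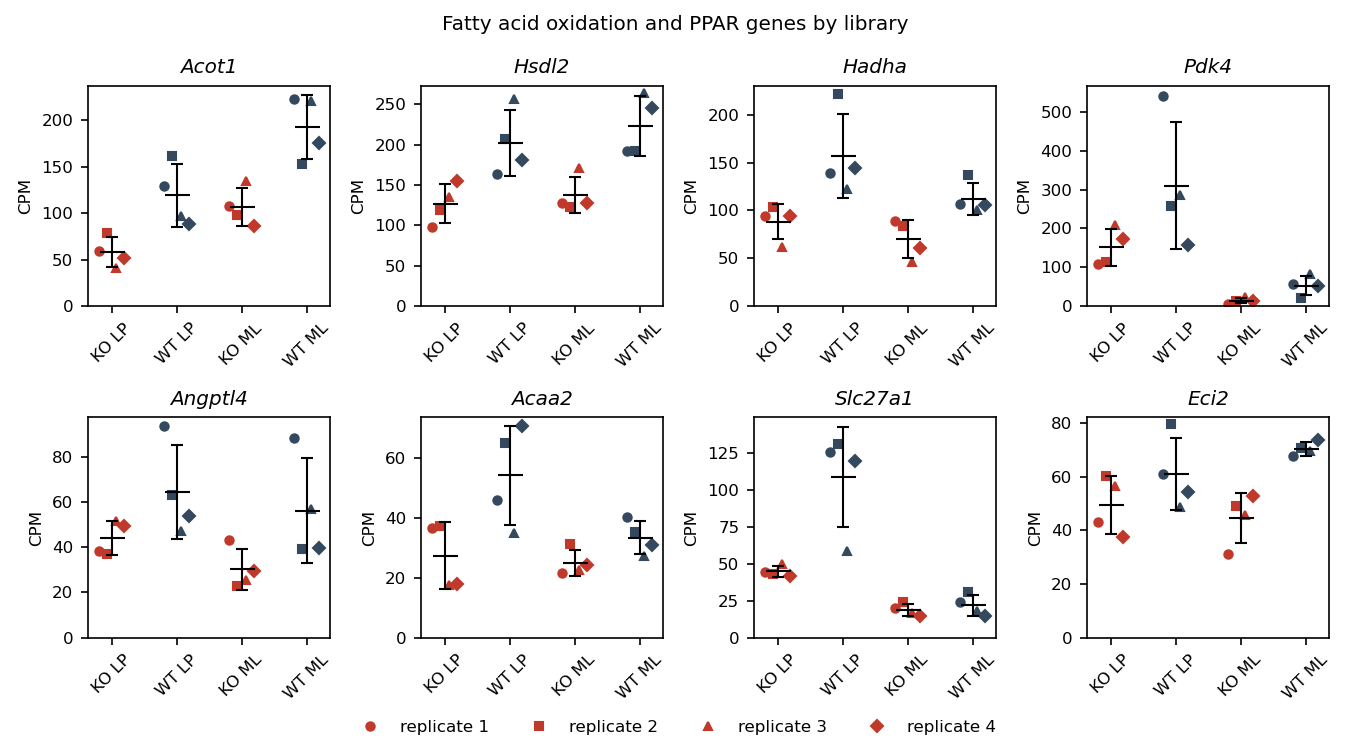
CPM of 8 fatty acid oxidation and PPAR genes in each of the 16 luminal libraries, KO left of WT in each population, with the mean and SD of 4 libraries. Markers give the replicate number. For Acot1, Hsdl2 and Hadha the KO points lie below the WT points in both LP and ML, and for Slc27a1 only in LP.

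Uptake and entry into mitochondria came first in the pathway. Slc27a1, a fatty acid transport protein, had 44.8, 43.1, 50.2 and 41.6 CPM in KO LP libraries, against 126, 132, 58.4 and 119.9 CPM in WT LP libraries. Its ML values were 19.8, 23.9, 16.8 and 14.8 CPM in KO libraries, against 24.1, 30.6, 18.2 and 14.4 CPM in WT libraries. The LP groups did not overlap and the ML groups did. The difference of the change between LP and ML did not pass (log2 -1.04, edgeR unadjusted p = 0.00656, adjusted p = 1). Cpt1a, which forms the carnitine esters, averaged 59.3 ± 16.9 CPM in KO LP and 74.0 ± 8.60 CPM in WT LP, and 118 ± 20.3 CPM in KO ML and 157 ± 14.2 CPM in WT ML. Its blocked log2 change was -0.38 (limma voom adjusted p = 0.194). Cpt2, which reverses that step inside the mitochondrion, and Slc25a20, the carnitine carrier, were at log2 -0.82 and -0.25 without the block, and neither passed.

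Among the enzymes of the spiral, Acaa2, the thiolase that ends a round, was lower in KO in all 8 pairs, as were Acot1, Hadha and Hsdl2. It averaged 27.4 ± 11.2 CPM in KO LP and 54.2 ± 16.6 CPM in WT LP, and 24.9 ± 4.28 CPM in KO ML and 33.4 ± 5.60 CPM in WT ML. The blocked log2 change of -0.72 did not pass (limma voom adjusted p = 0.0908). Eci2, an isomerase for unsaturated chains, was at log2 -0.50 and the peroxisomal enzyme Ehhadh at -1.09 without the block. The acyl-CoA dehydrogenases Acadvl, Acadl and Acadm, which start a round on very long, long and medium chains, were at -0.28, -0.34 and -0.10. None of these passed with or without the block.

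Pdk4 and Angptl4 are known to be induced by PPARs. Pdk4, the kinase that shuts pyruvate out of the citric acid cycle, had 109, 115, 208 and 173 CPM in KO LP libraries, against 540.3, 258, 287 and 157 CPM in WT LP libraries. KO ML libraries had 5.41, 13.7, 22.6 and 13.6 CPM, against 57.2, 20.8, 82.5 and 51.4 CPM in WT ML libraries. The ML groups did not overlap, while in LP WT replicate 4 lay within the KO range. The log2 change was -1.45 (SE 0.36, limma voom adjusted p = 0.994) and -1.45 with the block (adjusted p = 0.0908). The voom value was -1.87 in replicates 1 and 2 alone and -1.01 in replicates 3 and 4 alone.

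Angptl4, a secreted inhibitor of lipoprotein lipase, averaged 44.1 ± 7.45 CPM in KO LP and 64.4 ± 20.6 CPM in WT LP, and 30.2 ± 8.97 CPM in KO ML and 56.2 ± 23.1 CPM in WT ML. It did not pass (blocked log2 -0.72, limma voom adjusted p = 0.08).

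Among the receptors, Ppard was at log2 -0.19 and Pparg at 0.43, the coactivator Ppargc1a had opposite signs in LP (-0.69) and ML (1.49), and none of the 3 passed (limma voom adjusted p = 0.994 each). Ppara had at most 1 count in any KO library and at most 5 in any WT library. Fabp4 and Cd36, which adipocytes and endothelium also express, had opposite signs in LP and ML.

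Adipocytes also use many of these genes, and their defining markers were at or near 0 in most libraries. Adipoq, Plin1, Cidec, Cfd and Lep had 0 counts in all 4 KO LP libraries, against at most 3 counts in any WT LP library. In ML they had at most 41 counts in any KO library and at most 1 in any WT library, and Lep was at 0 throughout. All 11 adipocyte markers, some of which epithelium also expresses, summed to 269.8 to 331 CPM in KO LP and 257 to 579 CPM in WT LP, and to 97.4 to 174 CPM in KO ML and 77.7 to 112 CPM in WT ML. These ranges overlapped in both populations, and the part of adipocyte RNA in the oxidation list was not tested. The fatty acid list in the basal libraries of these pools had a median log2 change of -0.28. No gene passed the test of luminal against basal change (edgeR, 14082 genes, 0%), 8.14% were under an unadjusted p of 0.05, and 4 of the 27 were.

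**Figure D3:**
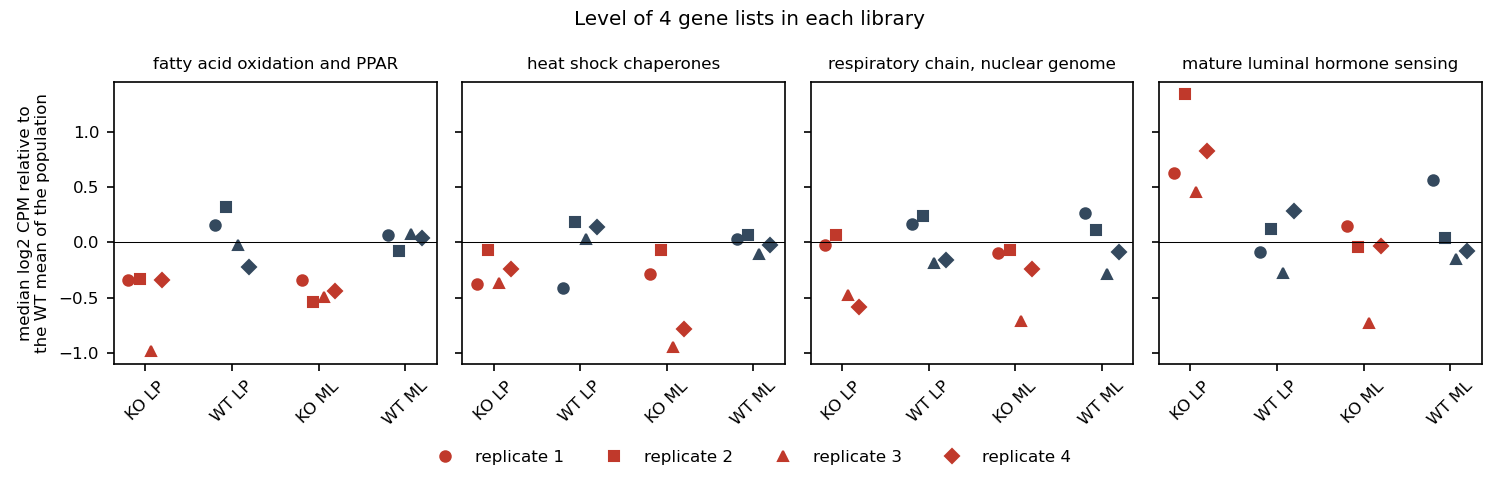
Median log2 CPM over the tested members of 4 gene lists in each luminal library, relative to the WT mean of the same population, KO left of WT. All 8 KO points of the fatty acid oxidation and PPAR list lie below 0, the KO points of the chaperones are lowest in ML replicates 3 and 4, and those of the hormone-sensing list lie above 0 in all of LP and in ML replicate 1.

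The respiratory chain, which takes the electrons that oxidation yields is encoded in both genomes. Of 24 tested subunits encoded in the nucleus, 20 were lower in KO in both populations and 1 was higher, with a median log2 change of -0.30 (-0.24 in LP and -0.27 in ML). Of these, 1 was lower at an unadjusted p under 0.05 (limma voom, 1.68% of all genes) and 8 with the block (4.98% of all genes). None passed the adjusted threshold. Atp5c1, the gamma subunit of ATP synthase, averaged 112 ± 22.8 CPM in KO LP and 152 ± 26.6 CPM in WT LP, and 163 ± 35.3 CPM in KO ML and 199.7 ± 15.8 CPM in WT ML, lower in KO in all 8 pairs (blocked log2 -0.37, limma voom adjusted p = 0.19). Cox5a, a subunit of cytochrome c oxidase, was also lower in all 8 pairs (blocked log2 -0.44, limma voom adjusted p = 0.312). Of the 13 subunits encoded in mitochondrial DNA, 11 were higher in KO in both populations and none was lower in both, with a median of 0.24 (0.32 in LP and 0.04 in ML). Leaving out 1 pool at a time moved the nuclear median between -0.39 without WT replicate 3 and -0.17 without KO replicate 3, and the mitochondrial one between 0.074 without WT replicate 1 and 0.38 without KO replicate 1 (0.088 without KO replicate 4, 0.15 without WT replicate 4). The 2 sets were not tested against each other. The one under an unadjusted p of 0.05 was mt-Nd2, a subunit of complex I, which averaged 826 ± 128 CPM in KO LP and 541 ± 189 CPM in WT LP, and 959.8 ± 271 CPM in KO ML and 749 ± 272 CPM in WT ML (log2 0.52, limma voom adjusted p = 0.994). In the 24 libraries, mitochondrial ribosomal RNA took 13.5% to 35.1% of a library's counts, and with its genes left out before scaling the medians were -0.31 for the nuclear and 0.24 for the mitochondrial subunits, and mt-Nd2 was at 0.51.

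Among the chaperones 1 gene fell, with the block, Hspa8, the constitutive member of the HSP70 family. It lies on chromosome 9 from 40800984 to 40810087 on the plus strand, has processed copies elsewhere in the genome that can take its reads, and had 1305, 1327, 1580.0 and 1135 CPM in KO LP libraries, against 1492, 2173, 2005 and 2143 CPM in WT LP libraries. In ML it had 760.0, 1089.9, 665 and 727 CPM in KO libraries, against 1309, 1141, 1189 and 1514 CPM in WT libraries. In ML the KO libraries lay below all WT libraries, and in LP KO replicate 3 lay above the lowest WT library. With the block the log2 change was -0.61 (SE 0.11, limma voom adjusted p = 0.0349, 0.747 without the block). Without the block it was -0.44 in replicates 1 and 2 alone and -0.79 in replicates 3 and 4 alone.

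Of the 14 chaperone genes, 10 were lower in KO in both populations and 1 was higher. At an unadjusted p under 0.05, 7 were lower and 1 was higher, and the median log2 change was -0.40. This list varied with the replicates, with a median of -0.17 from replicates 1 and 2 alone and of -0.66 from replicates 3 and 4 alone. Hsph1, a co-chaperone of the HSP110 type, averaged 52.8 ± 17.1 CPM in KO LP and 79.3 ± 18.8 CPM in WT LP, and 47.1 ± 24.9 CPM in KO ML and 77.7 ± 14.3 CPM in WT ML. It was lower in all 8 pairs, as was Dnaja1, a partner of HSP70, and neither passed (blocked limma voom adjusted p = 0.106 and 0.215). Hspb1, a small heat shock protein, had the opposite direction at log2 0.50.

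Hspa1b, a stress-induced HSP70, was the 1 gene that passed in a single population, ML (edgeR, 0.00768% of genes, against 0 in LP, 0%). It had 66.8, 46.2, 57.4 and 51.2 CPM in KO ML libraries, against 134, 154, 141 and 182 CPM in WT ML libraries, and the groups were far apart. In LP it had 18.5, 33.2, 58.7 and 38.1 CPM in KO libraries, against 18.8, 41.9, 30.2 and 70.8 CPM in WT libraries, which overlapped throughout. The log2 change was -1.46 in ML (edgeR adjusted p = 0.0446) and -0.14 in LP, and the call was lost with the replicate block (adjusted p = 0.0846) and when any 1 ML library was left out. Its near copy Hspa1a can share reads with it, and no gene passed the test of LP against ML change (edgeR, 0%, with 3.83% of genes under an unadjusted p of 0.05).

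**Figure D4:**
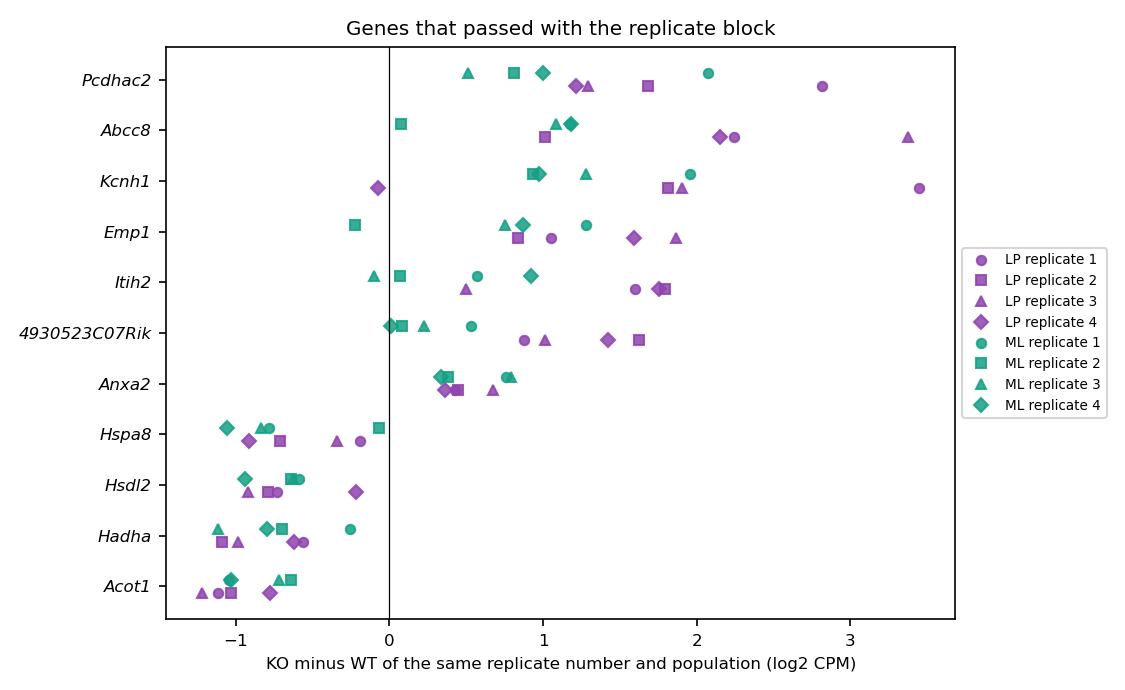
The log2 CPM difference of KO minus WT libraries of the same number and population for 11 of the 12 genes that passed with the replicate block, LP and ML in separate colours and each replicate with its own marker. All points of the 4 genes at the bottom lie below 0, and of the 7 genes at the top Kcnh1, Emp1 and Itih2 have 1 point below 0 each.

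The genes that rose were not of 1 kind. Emp1, Anxa2, Itih2, Kcnh1 and 4930523C07Rik lie outside the rule for named genes and are given because they passed. Emp1, a tetraspan epithelial membrane protein on chromosome 6 from 135362545 to 135383173 on the plus strand, had 162, 112, 500.1 and 409 CPM in KO LP libraries, against 77.9, 62.6, 137 and 135 CPM in WT LP libraries. Its ML values were 346, 199.7, 964 and 832 CPM in KO libraries, against 142, 233, 572 and 456 CPM in WT libraries. Replicates 3 and 4 were high in both genotypes, KO exceeded WT within each number except in ML replicate 2, and the groups overlapped in LP and in ML. The log2 change was 1.01 (SE 0.43, limma voom adjusted p = 0.994) without the block and 1.04 (SE 0.14, adjusted p = 0.00661) with it. Anxa2, a calcium-dependent phospholipid-binding protein on chromosome 9 from 69453620 to 69491795 on the plus strand, showed the same layout, with 138, 116, 302 and 266 CPM in KO ML and 81.3, 89.2, 175 and 210.2 CPM in WT ML. It was higher in KO in all 8 pairs (blocked log2 0.52, SE 0.10, limma voom adjusted p = 0.0481).

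A potassium channel subunit and a channel were among the 8. Abcc8, the sulfonylurea receptor of ATP-sensitive potassium channels on chromosome 7 from 46104523 to 46180033 on the minus strand, had 9.53, 11.3, 10.7 and 10.4 CPM in KO LP libraries, against 1.75, 5.44, 0.724 and 2.09 CPM in WT LP libraries. KO ML libraries had 49.2, 58.6, 38.7 and 66.0 CPM, against 21.6, 55.5, 18.0 and 28.9 CPM in WT ML libraries. The LP groups were far apart, and in ML WT replicate 2 lay within the KO range. Abcc8 changed by a log2 value of 1.45 with the block (SE 0.26, limma voom adjusted p = 0.0349, 0.747 without the block). Kcnh1, a voltage-gated potassium channel on chromosome 1 from 192190774 to 192510159 on the plus strand, averaged 19.9 ± 7.56 CPM in KO LP and 6.96 ± 4.87 CPM in WT LP, and 167 ± 75.4 CPM in KO ML and 72.3 ± 35.8 CPM in WT ML. Its blocked log2 change was 1.42 (SE 0.26, limma voom adjusted p = 0.0349), and LP replicate 4 went the other way. Scnn1a, the alpha subunit of the epithelial sodium channel, had 30.5, 37.6, 78.6 and 35.6 CPM in KO LP libraries, against 4.13, 21.8, 8.69 and 15.1 CPM in WT LP libraries. In ML it had 177, 106, 241 and 162 CPM in KO libraries, against 82.1, 143, 116 and 109 CPM in WT libraries. It did not pass (blocked log2 1.25, limma voom adjusted p = 0.0508), with no overlap in LP, overlap in ML and KO LP replicate 3 far above the rest of its group.

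Pcdhac2, a clustered protocadherin on chromosome 18 from 37143503 to 37187657 on the plus strand, had 21.3, 20.4, 9.95 and 11.6 CPM in KO LP libraries, against 2.75, 6.14, 3.86 and 4.82 CPM in WT LP libraries. Its ML values were 184, 224, 209.9 and 152 CPM in KO libraries, against 43.4, 128, 147 and 76.2 CPM in WT libraries. The groups did not overlap in either population. Its blocked log2 change was 1.45 (SE 0.26, limma voom adjusted p = 0.0349). Its constant exons belong to the whole alpha cluster, so reads there cannot be given to 1 member with certainty.

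Itih2, a heavy chain that binds hyaluronan, on chromosome 2 from 10094593 to 10131396 on the minus strand, and 4930523C07Rik, to which no role is given here, on chromosome 1 from 160044382 to 160080208 on the plus strand, were also called. Itih2 averaged 31.2 ± 27.1 CPM in KO LP and 9.68 ± 6.98 CPM in WT LP, and 126 ± 58.4 CPM in KO ML and 94.1 ± 42.4 CPM in WT ML (blocked log2 1.02, limma voom adjusted p = 0.0481). 4930523C07Rik averaged 131 ± 10.8 CPM in KO LP and 56.5 ± 13.4 CPM in WT LP, and 226 ± 54.5 CPM in KO ML and 197 ± 60.3 CPM in WT ML (blocked log2 0.72, limma voom adjusted p = 0.0317). By edgeR the log2 changes were 1.66 in LP and 0.42 in ML for Itih2, and 1.19 in LP and 0.20 in ML for 4930523C07Rik.

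Other leading genes did not pass with or without the block and are given by value. Man1c1, a Golgi mannosidase, averaged 56.9 ± 14.2 CPM in KO LP and 32.5 ± 19.8 CPM in WT LP, and 79.9 ± 3.72 CPM in KO ML and 48.0 ± 14.5 CPM in WT ML. Obfc1, a subunit of the telomere complex CST, Zc3h6, a zinc finger gene, and Fgg, the gamma chain of fibrinogen, were at log2 1.55, 1.38 and 1.22 without the block. On the lower side stood Wrnip1, a partner of the WRN helicase (-1.08, lower in all 8 pairs), Gsta4, a glutathione transferase for lipid aldehydes (-1.37), and Utp14a, a ribosome assembly factor (-0.76). Their blocked adjusted p-values in limma voom ran from 0.058 for Wrnip1 to 0.121 for Fgg. Wrnip1 (from 32802038 to 32822609) and Eci2 of the fatty acid list (from 34977748 to 35027096) lie on chromosome 13, as Id4 does. An effect of their place on the chromosome of the targeted gene was not tested.

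Hormone-sensing genes, the signature of ML cells, had a positive median change in LP and a median near 0 in ML. Over 21 tested genes the shared median log2 change was 0.38, with 6 higher at an unadjusted p under 0.05 and none lower. The median was 1.04 in LP and -0.04 in ML, and 12 genes had opposite signs, against 5542 of all 13013 tested genes. In the edgeR test of LP against ML, 13 had an unadjusted p under 0.05, against 3.83% of all tested genes. Summed levels were 1543, 2371, 1316 and 1693 CPM in KO LP, against 903, 977, 802 and 1223 CPM in WT LP, with no overlap. They were 11182, 6689, 9509 and 11212 CPM in KO ML, against 11675, 8908, 10377 and 9939.8 CPM in WT ML, which overlapped. KO LP replicate 2 was highest among the LP sums, and without it the shared median was 0.14. Of the 21, 8 were higher in KO in both populations and 1 was lower in both. Pgr, the progesterone receptor, lies outside the rule for named genes and was picked after its values were seen. It averaged 70.0 ± 47.7 CPM in KO LP and 23.2 ± 16.4 CPM in WT LP, and 441 ± 144 CPM in KO ML and 401 ± 110.1 CPM in WT ML (log2 0.83, limma voom adjusted p = 0.994). Its counts in KO LP were 178, 784, 140 and 438, highest in replicate 2. Not every member rose in LP as Pgr did. Gata3, also picked after its values were seen, had 449, 439, 85 and 338 unscaled counts in KO LP. In WT LP it had 629, 539, 241 and 473.

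Abcc8, Kcnh1, Pcdhac2, Itih2, Scnn1a, Fgg and S100a6 all had higher means in ML than in LP in both genotypes. The sum of the hormone-sensing genes, of which S100a6 is itself one, was also higher in ML in both genotypes, though not every member was. In LP that sum did not overlap between genotypes. Emp1, Anxa2, 4930523C07Rik, Man1c1 and Obfc1 likewise had higher means in ML than in LP in both genotypes. The part of that sum in the LP changes of all these genes was not tested. In ML, where the sums overlapped, Abcc8, Kcnh1 and Pcdhac2 were higher in KO in all 4 pairs. Itih2, Scnn1a, Fgg and S100a6 had 1 pair the other way, replicate 3 for Itih2 and replicate 2 for Scnn1a, Fgg and S100a6. Among genes of opposite sign, 3 had the smallest p in the test of LP against ML. Phyh, which starts the breakdown of phytanic acid, was at log2 0.86 in LP and -0.92 in ML, Bmp3, a BMP family ligand, at 1.43 and -0.84, and Marcks, a membrane substrate of protein kinase C, at 1.42 and -0.28 (edgeR adjusted p = 0.275 for Phyh).

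**Figure D5:**
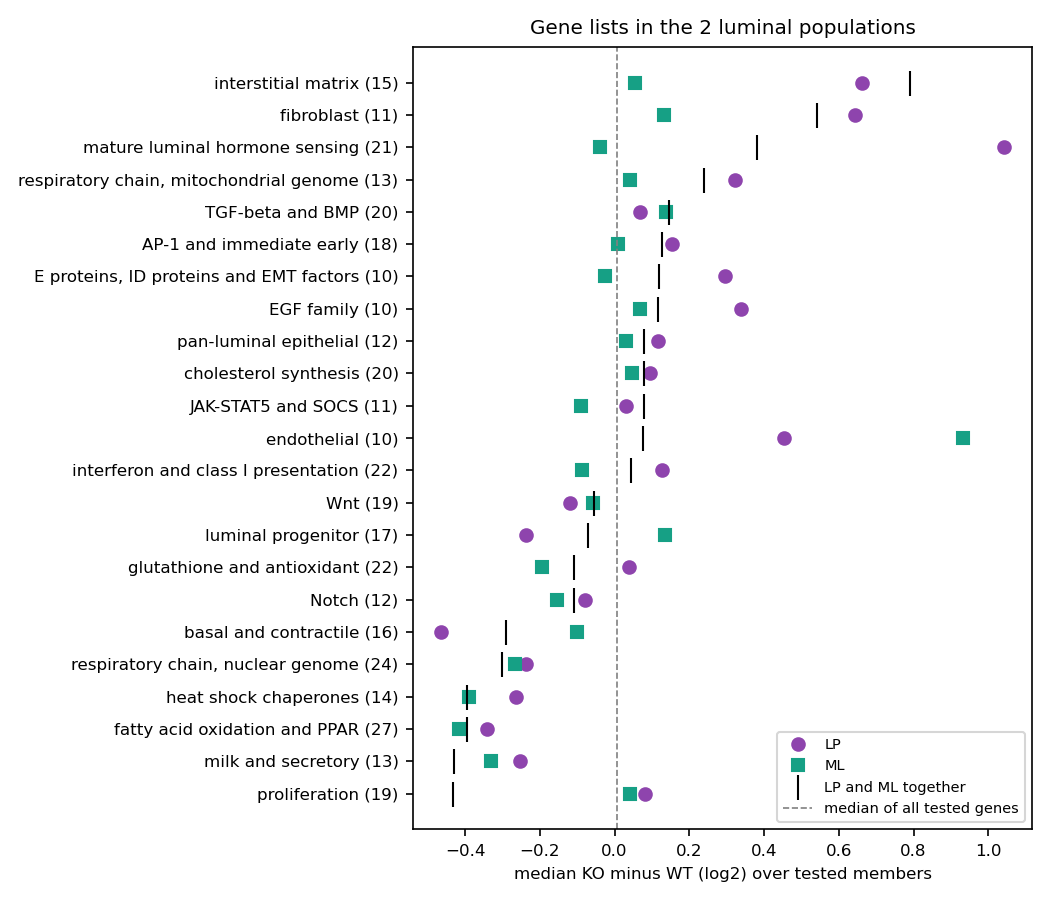
Median log2 KO minus WT change over the tested members of each gene list (number of tested genes in brackets), in LP, in ML and in the 2 together, with the median of all tested genes as a dashed line. The fatty acid oxidation and PPAR, chaperone and nuclear respiratory chain lists lie left of the line in both populations. So do the milk, basal and contractile, Notch and Wnt lists. The hormone-sensing list lies right of the line in LP only.

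The other pathway lists lay near the centre or varied between pools. The list of E proteins, which ID proteins bind, together with ID genes and factors of epithelial-mesenchymal transition held 10 tested genes with a shared median of 0.12 and 6 opposite signs. Tcf3, which encodes E2A, was at log2 -0.80 in LP and -0.05 in ML (blocked log2 -0.44, limma voom adjusted p = 0.358). Cholesterol synthesis (0.08), interferon and class I presentation (0.04), Notch (-0.11), Wnt (-0.06), JAK-STAT5 (0.08), EGF family (0.12), AP-1 and immediate early (0.13), TGF-beta and BMP (0.15) and glutathione genes (-0.11) had the shared medians given in brackets, and none of their members passed.

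The members of such lists with the smallest p are given by value, and none passed. Tgfbr2, a TGF-beta receptor, averaged 101 ± 9.65 CPM in KO LP and 52.5 ± 18.0 CPM in WT LP, and 176 ± 50.2 CPM in KO ML and 134 ± 42.3 CPM in WT ML (log2 0.69, limma voom adjusted p = 0.994). Tgfbr1, its partner, was higher in KO in all 8 pairs (blocked log2 0.48, limma voom adjusted p = 0.152). Tgfa and Hbegf, ligands of the EGF receptor, were at 0.80 and 0.68, with 0.53 to 1.03 for Tgfa and 0.26 to 0.97 for Hbegf when 1 pool was left out, and Ltf, the milk protein lactoferrin, at 1.08. Over 13 tested milk genes the median was -0.43, with 7 lower in both populations, 2 higher in both and 1 higher at an unadjusted p under 0.05. Replicate 2 stood apart, with 16968, 32176, 11647 and 22822 CPM of milk transcripts in KO LP and 19258, 106207, 19613 and 14048 CPM in WT LP. Without WT replicate 2 the median was 0.093, and without KO replicate 3 it was -0.11.

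Proliferation genes varied with the pools compared. Mki67, a marker of cycling cells, had 58.5, 269, 5.10 and 58.0 CPM in KO LP libraries, against 45.1, 223, 185 and 63.4 CPM in WT LP libraries. KO ML libraries had 45.8, 159.7, 4.34 and 47.7 CPM, against 33.9, 119.9, 62.7 and 56.5 CPM in WT ML libraries. KO replicate 3 was lowest and KO replicate 2 highest in both populations. The median of the 19 tested genes was -0.43 in the shared fit on log values and 0.08 and 0.04 in the count fits of LP and ML, so its sign differed with the model. Replicates 1 and 2 alone gave 0.54, and replicates 3 and 4 alone gave -1.28.

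Markers of other cell types were counted in the same libraries. Basal and contractile genes summed to 149 to 253 CPM in KO LP and 190.1 to 248 CPM in WT LP, and to 96.0 to 354 CPM in KO ML and 115 to 344 CPM in WT ML. Of 16 tested, 7 were lower in KO in both populations, 3 were higher in both and 3 were lower at an unadjusted p under 0.05. Over all tested genes 27.8% were lower in both, 29.6% were higher in both and 1.68% were lower at that p. Acta2, smooth muscle actin, was at log2 -1.20 without passing. The 14 fibroblast markers, among which C3 is also luminal, summed to 774 to 2065 CPM in KO LP and 1634 to 2291 CPM in WT LP, and to 148 to 497 CPM in KO ML and 288 to 1241 CPM in WT ML. Of 11 tested, 7 were higher in KO in both populations (median 0.54, 0.64 in LP and 0.13 in ML). C3 had the most counts of these markers in LP, 2022 to 10932 in KO and 6668 to 17043 in WT. In ML Dcn, which is also in the matrix list below, had 418 to 2297 counts in KO and 773 to 5327 in WT. Pdgfra, Dpt, Pi16 and Dpp4 had at most 18 counts in any KO ML library and 11 in any WT ML library. The fibroblast median was 0.31 without WT replicate 1 and 0.10 from replicates 3 and 4 alone. Interstitial matrix genes summed to 331 to 1210.4 CPM in KO LP and 205 to 886 CPM in WT LP, and to 158 to 461 CPM in KO ML and 286 to 1126 CPM in WT ML. Of 15 tested, 8 were higher in KO in both populations (median 0.79, 0.66 in LP and 0.06 in ML). The matrix median was 0.31 without WT replicate 1, 0.52 without KO replicate 2 and 0.14 from replicates 3 and 4 alone. Endothelial markers summed to 6.55 to 58.3 CPM in KO LP and 24.1 to 41.5 CPM in WT LP, and to 70.3 to 105 CPM in KO ML and 68.3 to 175 CPM in WT ML. The 15 immune markers in the table summed to at most 27.2 CPM in any KO and 36.3 CPM in any WT library. Schwann cell markers, in these libraries mostly Mbp and Sox10, summed to 59.3 to 125 CPM in KO ML and 36.7 to 63.2 CPM in WT ML, and to 105 to 157 CPM in KO LP and 107 to 139 CPM in WT LP. None of the markers in this paragraph passed.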

How the data were processed

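RNA of 24 libraries was sequenced by the authors, and 16 of them, LP and ML, were used for the shared comparison. What the authors deposited are unnormalized expected counts of each gene, judging by the values and the header. Reads were processed with RSEM, STAR and cutadapt on mm10, per the submitters' processing notes, and versions are not given there. They were rounded, the default edgeR filter kept 13013 of 24007 genes, and CPM values are relative to the TMM-scaled library size of the kept genes. Totals and detection limits are set over all genes. KO minus WT was tested as the mean of LP and ML with limma voom 3.58.1, the pool being a random block (correlation 0.222 without and -0.0421 with the replicate block), because edgeR has no random term. Single populations, LP against ML and luminal against basal used edgeR 4.0.16 quasi-likelihood tests, with DESeq2 1.42.0 as an alternative (R 4.3.3). All p-values are two-sided and Benjamini-Hochberg adjusted over all tested genes at 0.05. Positions came from GENCODE M21 (mm10), which held 23758 of the identifiers.

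Replicate numbers came from sample titles. The replicate tags of KO ML samples differ from them. Same-number KO and WT libraries deviated together in every pair (r = 0.115 to 0.366 in LP, 0.121 to 0.332 in ML, over a minimum of 0.1), so the numbers were taken to pair the samples. Libraries of different numbers were not compared in this way, so the pairing remains an assumption. LP and ML of 1 pool correlated at 0.0427 to 0.313. In replicate 4 they lay below that minimum (0.0427 in KO and 0.0975 in WT) and were still taken as pools. The labels call the replicates biological, and nothing else in the files shows that they came from separate mice. Named genes were the 8 with the smallest p per direction among same-sign genes of at least 5 CPM, leaving out predicted genes, the 2 with the smallest p of each list, Id4, and 3 genes of opposite sign. Members and lists were chosen with earlier results of these data known. The fits were tested on simulated data. Some genes are not reported here. Lists (28, with 442 of 443 symbols in the table) are described by counts and medians. Alternatives with the replicate block and another choice together were added after the data had been seen.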

Additional observations from a re-analysis of the deposited data

Results flagged for a closer look

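In 4 of 84 gene-by-group sets of 4 libraries, 1 library lay far from the other 3 by Dixon's criterion, which chance alone meets in about 1 of 20 groups. Scnn1a had 78.6 CPM in KO LP replicate 3, against 37.6 CPM in the nearest KO LP library. Obfc1 had 14.6 CPM in that same library, against 5.91 CPM in the nearest. Hsdl2 had 171 CPM in KO ML replicate 3, the KO ML library closest to WT, against 128 CPM in the nearest KO ML library. Hadha had 137 CPM in WT ML replicate 2, against 106 CPM in the nearest WT ML library.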

How the results depend on the processing

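The count of genes for the shared effect was 0 under all but 4 of 23 alternatives, the leave-outs of single pools included (0 to 0), and moved to 19 with DESeq2 without the pool, to 3 with a term for replicates 1 and 2 against 3 and 4, to 3 within replicates 3 and 4 and to 12 with the replicate block. With the replicate block the pairing of numbers gave 12 calls in voom, 6 in edgeR, 1 in limma-trend on pool means, 137 in DESeq2 and 1 to 158 when a replicate was left out. In LP, DESeq2 called 3, replicates 3 and 4 gave 7, and leave-outs 0 to 1 (1 without KO LP replicate 2). In ML the 1 call became 8 with DESeq2, 0 with RLE size factors, 0 with the replicate block, 0 within replicates 1 and 2, 13 within replicates 3 and 4 and 0 to 0 in leave-outs. Luminal against basal gave 0 to 1 in leave-outs (1 without KO replicate 2).

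Of the alternative values of single genes, 13 reversed in sign. Rspo1 with the block (-0.63) was at 0.050, 0.29 and 0.49 without replicates 1, 3 and 4 and at -5.83 without replicate 2. The log2 changes of Cldn4 (0.41), Tcf4 (0.17), Mki67 (-0.84) and Kif11 (-0.95) turned: within replicates 1 and 2, Cldn4 was at -0.053, Tcf4 at -0.11, Mki67 at 0.45 and Kif11 at 0.60. Without single KO replicates Mki67 ran from -1.64 to 0.089 and Kif11 from -1.99 to 0.28. With the block and without replicate 3 they were at 0.20 and 0.21, Kif11 was at 0.11 without replicate 4, and on counts summed per pool at 0.00089. The cause was not tested. A further 1946 single-gene values kept their sign and side of the threshold, 58 came to pass and 67 no longer passed. Of the 28 list medians, 15 changed sign under at least 1 alternative, among them milk (0.093 without WT replicate 2), proliferation (0.54 within replicates 1 and 2), basal and contractile (0.084 within replicates 1 and 2), hormone sensing (-0.040 with an additive model) and luminal progenitor (0.28 within replicates 1 and 2). The fatty acid oxidation, chaperone and both respiratory chain medians did not. With 4 pools per genotype and 0.5 to 2 ng of amplified RNA, a missed threshold does not show equal levels.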

Other observations

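The hormone-response genes Rspo1 and Calca differed within the KO pools, with KO replicate 2 against the other 3. WT replicate 2 was the lowest WT library for Rspo1 in LP and in ML and for Calca in ML. Rspo1, a secreted Wnt agonist that luminal cells make after progesterone, had 1.52, 119, 2.91 and 1.06 CPM in KO LP libraries, against 50.8, 21.6, 60.3 and 38.7 CPM in WT LP libraries. In ML it had 0, 50.1, 0 and 0.696 CPM in KO libraries, against 9.85, 2.89, 16.1 and 43.3 CPM in WT libraries. In KO replicate 2 it was above every WT library of its population, and in the other KO pools it was below every WT library of its population. The shared log2 change was -3.33 (limma voom adjusted p = 0.994), and without that pool it was -5.31 with an adjusted p of 0.217. Calca, which encodes calcitonin and a neuropeptide, had 0, 335, 0.189 and 0 CPM in KO ML libraries, against 103, 1.87, 54.7 and 41.3 CPM in WT ML libraries. Both genes were low in KO replicates 1, 3 and 4 and high in KO replicate 2, so no shared direction held over the 4 KO pools.

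Luminal identity genes showed no common direction. Of 17 progenitor markers, 9 had opposite signs in LP and ML, 5 were higher in KO in both and 3 were lower in both (median -0.07). Of 12 markers of luminal epithelium as a whole, 6 were higher in both and 3 lower in both (median 0.08). None of these markers passed in limma voom, with or without the block, where 0% and 0.0922% of all genes did.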
